A study of Homo sapiens with 9 samples.

Results

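The immunity-related GTPases (IRGs) are a family of interferon-inducible proteins, and the genes described here are Irgm1, Irgm2, Igtp, Iigp1, Tgtp1, Tgtp2 and Ifi47. They were taken by symbol from a table of 17369 genes measured in orthotopic tumors of a murine anaplastic thyroid cancer line. Of the 7 symbols, 6 had a row, and Ifi47 (which encodes Irgd) was not analysed here. All 3 groups of tumors grew from TBP3743, a line that carries Braf V600E and lacks Trp53, both changes having been made in the thyroid of B6129SF1 mice. The group names are those of the sample labels. The SFOG group received original TBP3743 cells in B6129SF1 hosts. In the SFSC group the B6129SF1 hosts received adapted TBP3743 cells, which are cells recovered after round 3 of serial passage in C57BL/6 mice. The B6SC group received the same adapted cells in C57BL/6 hosts. Every host was a female injected at 6 weeks of age with 100000 cells in the thyroid, the whole tumor was taken 14 days later, and there were 3 tumors in each group. The B6SC and SFOG groups differ in both the injected cells and the host strain, which cannot be told apart in that comparison. The paper names Orient Bio as the supplier of the C57BL/6 mice and the Jackson Laboratory as that of the B6129SF1 mice. Host strain and supplier therefore cannot be told apart in any comparison of hosts.

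IRG proteins are induced by interferon-gamma, and they are known for stripping and breaking the vacuoles in which intracellular parasites and bacteria live. The family falls into regulators with a GMS motif (Irgm1, Irgm2 and Igtp, which encodes Irgm3) and effectors with a GKS motif (Iigp1, which encodes Irga6, Tgtp1 and Tgtp2, which encode Irgb6, and Ifi47). The regulators sit on host membranes and hold the effectors in an inactive state there, so that the effectors load onto vacuoles that lack the regulators. Many cell types, among them macrophages, fibroblasts and epithelial cells, make IRGs when they meet interferon-gamma. In whole tumor RNA, fewer cells of a type and less RNA per cell cannot be told apart.

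Expression is given as FPKM, a fragment count scaled to transcript length and to library size. Levels are compared between genes and between tumors on this scale, which does not correct for tumors that differ in the make-up of their RNA. Differences between groups are on the log2(FPKM + 1) scale, where folds of genes with low levels come out smaller than they are. They come from limma over 10263 genes that reached 1 FPKM in 3 or more tumors, with Benjamini-Hochberg adjustment. A gene was called a differentially expressed gene (DEG) when its adjusted p was under 0.05 and its log2 fold change was above 1 in size. All 6 IRG genes passed the filter on low values. FPKM is not a count and the depth of each tumor is unknown, so the number of tumors limits the precision. The FPKM of a tumor summed to between 457983 and 540514. Among lists of marker genes, the summed FPKM of 13 skeletal muscle genes was 35566 in SFSC replicate 3 and 5608 in B6SC replicate 1, against 3.93 to 702 in the other 7 tumors, and the IRG results are also given without those 2 tumors. The labels call the cells epithelial. Of 11 thyroid and epithelial markers Tshr, Slc5a5 and Foxe1 were under 1 FPKM in every tumor, whereas the thyroid transcription factor Nkx2-1 was at 23.5 to 44.5 FPKM and the keratin Krt8 at 153 to 615 FPKM. The summed FPKM of the 11 was 648 to 1010 in the SFOG tumors, 289 to 580 in the SFSC tumors and 428 to 476 in the B6SC tumors. Every adapted tumor was below every SFOG tumor in this sum. Most of the sum was keratin, with Krt8 at 553 and Krt18 at 390 of 975 FPKM in SFOG replicate 1. Of 6 of these markers tested, 1 had a difference above 0 in the SFSC group and 4 in the B6SC group, with medians of -0.73 and 0.05. The part of these markers in the IRG levels was not tested. Krt8 was a lower DEG in the SFSC group (-1.32, adjusted p = 0.0189, limma), where 0.857% of all genes tested were, and in the B6SC group (-1.12, adjusted p = 0.0346), where 0.672% were, and these calls were lost in 5 and 9 of 21 alternatives.

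The 6 IRG genes were lowest in the SFOG tumors, intermediate in the SFSC tumors and highest in the B6SC tumors. For each gene, every tumor of a group lay above every tumor of the group before it. Of all genes tested, 0.536% (55 genes) had the groups in this order without overlap. Against the SFOG group, 5 of 6 IRG genes were higher DEGs in the SFSC group, where 2.36% of all genes tested were. In the B6SC group 6 of 6 were, where 2.42% of all genes tested were. Between the adapted groups 0 of 6 were called, as were 0 of all genes tested in that direction (0%).

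**Figure D1:**
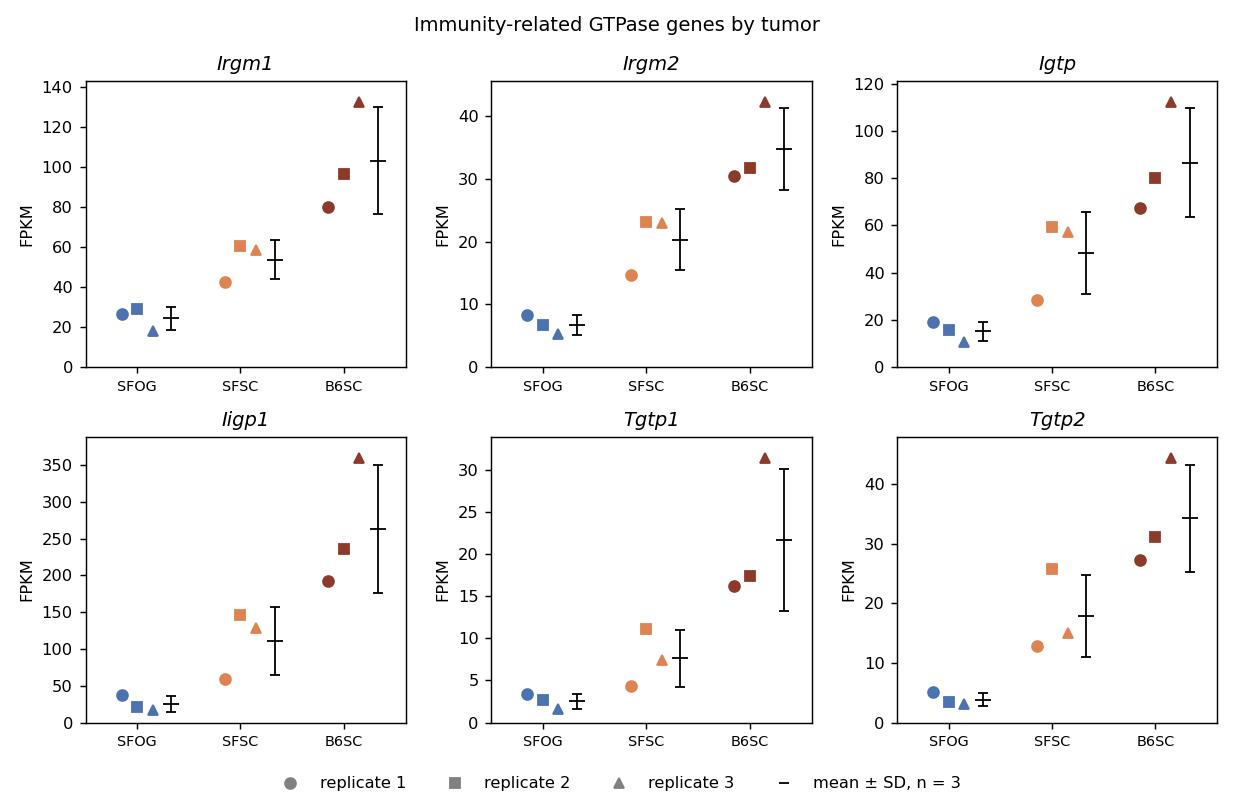
FPKM of the 6 immunity-related GTPase genes in each of the 9 tumors, one panel per gene, with the replicate number as the symbol and the group mean ± SD (n = 3) beside the tumors. In all 6 panels the 3 groups do not overlap, and B6SC replicate 3 is the highest tumor.

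Among the GMS regulators, Irgm1 was the most abundant in the SFOG group. Irgm1, which is known for its roles in autophagy and in keeping the effector IRGs inactive, was at 26.4, 28.8 and 18.0 FPKM in the SFOG tumors, 42.3, 60.6 and 58.4 in the SFSC tumors and 80.1, 96.7 and 132 in the B6SC tumors. The lowest adapted tumor was therefore above the highest SFOG tumor. The means were 24.4 ± 5.67, 53.8 ± 9.98 and 103 ± 26.8 FPKM (SD, n = 3), a ratio of means of 2.21 for the SFSC group and 4.23 for the B6SC group over the SFOG group. Irgm1 rose by 1.12 (SE 0.234, adjusted p = 0.0249, limma) in the SFSC group and by 2.03 (adjusted p = 0.00294) in the B6SC group, both as differences in log2(FPKM + 1).

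Irgm2, a regulator found mainly at the Golgi apparatus and endosomal membranes, was the least abundant of the 3 GMS genes in every tumor. It was at 8.25, 6.63 and 5.20 FPKM in the SFOG tumors, 14.7, 23.2 and 23.0 in the SFSC tumors and 30.4, 31.7 and 42.2 in the B6SC tumors. Here too the groups did not overlap, and within the SFSC group replicate 1 lay apart from a close pair. The means were 6.69 ± 1.53, 20.3 ± 4.86 and 34.8 ± 6.49 FPKM (SD, n = 3). Irgm2 rose by 1.46 (SE 0.217, adjusted p = 0.00833, limma) in the SFSC group and by 2.22 (adjusted p = 0.00209) in the B6SC group.

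Igtp, whose product resides at the endoplasmic reticulum and on lipid droplets, was at 18.9, 15.6 and 10.7 FPKM in the SFOG tumors, 28.3, 59.3 and 57.1 in the SFSC tumors and 67.4, 80.1 and 112 in the B6SC tumors. The SFSC replicate 1 tumor was nearer to the SFOG tumors than to the other two of its group. The means were 15.1 ± 4.12, 48.2 ± 17.3 and 86.6 ± 23.0 FPKM (SD, n = 3). Igtp rose by 1.58 (SE 0.317, adjusted p = 0.0224, limma) in the SFSC group and by 2.45 (adjusted p = 0.00437) in the B6SC group.

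Among the GKS effectors, Iigp1 was by far the most abundant. Iigp1, the effector that coats parasite vacuoles in oligomers, was at 37.3, 21.1 and 17.3 FPKM in the SFOG tumors, 58.5, 146 and 128.9 in the SFSC tumors and 192, 236 and 360 in the B6SC tumors. It was the highest of the 6 genes in 7 of the 9 tumors, and Irgm1 was above it in SFOG replicates 2 and 3. The means were 25.3 ± 10.6, 111 ± 46.3 and 263 ± 87.0 FPKM (SD, n = 3), and the ratio of means over the SFOG group was 4.40 in the SFSC group and 10.4 in the B6SC group. Iigp1 rose by 2.06 (SE 0.400, adjusted p = 0.0200, limma) in the SFSC group and by 3.35 (adjusted p = 0.00314) in the B6SC group. Ordered from the largest rise downwards in the B6SC group, Iigp1 ranked 2 among all 10263 genes tested, and Tgtp2 ranked 8, Tgtp1 18, Igtp 27, Irgm2 46 and Irgm1 60. In percentiles of all genes tested within a tumor, the level of Iigp1 went from 57.3 to 78.4 in the SFOG tumors to between 87.7 and 95.7 in the SFSC tumors and between 96.6 and 98.3 in the B6SC tumors.

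Tgtp1 and Tgtp2 are near-identical neighbouring copies, both called Irgb6, an effector that is among the first to load onto vacuoles. How reads that match both were assigned is not given in the sources used here, so the separate values are uncertain. Tgtp1 was at 3.34, 2.68 and 1.60 FPKM in the SFOG tumors, 4.32, 11.1 and 7.46 in the SFSC tumors and 16.2, 17.4 and 31.4 in the B6SC tumors. It had the lowest level of the 6 genes in every tumor. In the SFSC group its difference was 1.23 (SE 0.347, 95% confidence interval 0.45 to 2.02), which did not pass the test (adjusted p = 0.0644, limma). In the B6SC group Tgtp1 rose by 2.65 (adjusted p = 0.00449).

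Tgtp2 was at 5.03, 3.43 and 3.03 FPKM in the SFOG tumors, 12.8, 25.7 and 15.1 in the SFSC tumors and 27.3, 31.2 and 44.4 in the B6SC tumors. The highest SFSC tumor came close to the lowest B6SC tumor without reaching it. Tgtp2 rose by 1.93 (SE 0.277, adjusted p = 0.00746, limma) in the SFSC group and by 2.86 (adjusted p = 0.00209) in the B6SC group. When the FPKM of both copies were summed and fitted as one gene, the sum rose by 1.81 (adjusted p = 0.0130) and 2.94 (adjusted p = 0.00282).

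**Figure D2:**
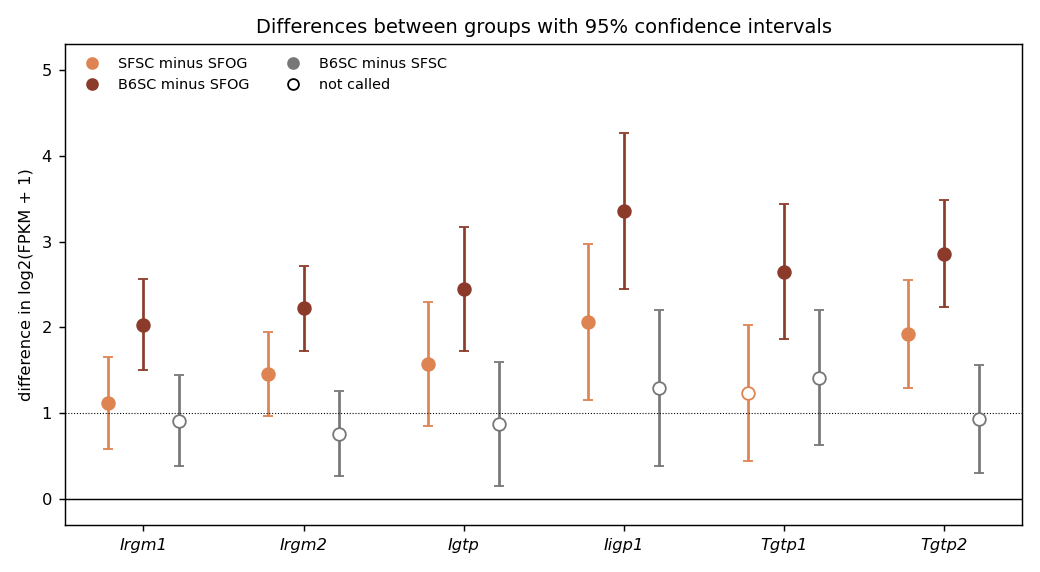
Differences in log2(FPKM + 1) between groups for the 6 genes with unadjusted 95% confidence intervals from limma, with filled points for DEGs and open points for genes that were not called, and a dotted line at a log2 fold change of 1. The B6SC minus SFOG points sit highest for every gene, and all 6 B6SC minus SFSC points are open.

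The median difference over the 6 genes was 1.52 for the SFSC group and 2.55 for the B6SC group, against medians over all genes tested of -0.03 in both. These comparisons share the SFOG tumors. With the mean of the adapted groups set against the SFOG group, 6 of 6 genes were called, with differences from 1.58 for Irgm1 to 2.71 for Iigp1, where 2.53% of all genes tested were called higher. Without the 2 tumors with skeletal muscle RNA, 6 of 6 genes were still called in the B6SC group, whereas only Irgm2 (1.36, adjusted p = 0.0277) and Tgtp2 (2.01, adjusted p = 0.0182) were called in the SFSC group. Igtp, Iigp1 and Irgm1 then had differences of 1.42, 1.91 and 1.05 with adjusted p of 0.0638, 0.0581 and 0.0617, on 2 SFSC tumors. Leaving out single tumors moved the SFSC count in the same way: it was 2 without SFOG replicate 3, without SFSC replicate 2 or without SFSC replicate 3, and 3 without SFOG replicate 2. It was 6 without SFSC replicate 1, where Tgtp1 was called too (1.54, adjusted p = 0.0367).

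The comparison of the adapted groups sets the hosts against each other when the injected cells are the same. The strain of the hosts and their supplier cannot be told apart in it. All 6 IRG genes were higher in the B6SC group in every tumor, where 6.32% of all genes tested were, but none passed the test. The differences were 0.91 (95% confidence interval 0.38 to 1.45) for Irgm1, 0.76 (0.27 to 1.26) for Irgm2, 0.87 (0.15 to 1.59) for Igtp, 1.29 (0.38 to 2.20) for Iigp1, 1.41 (0.63 to 2.20) for Tgtp1 and 0.93 (0.30 to 1.56) for Tgtp2. These intervals are not adjusted for the number of genes, and adjusted p lay between 0.532 and 0.746 (limma). At an unadjusted p under 0.05 all 6 genes passed, as did 6.27% of all genes tested in either direction. The median over the 6 genes was 0.92, against 0.01 over all genes tested. Intervals from near 0 to above 2 on the log2 scale leave the size of a host difference poorly fixed with 3 tumors a group.

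Summed over the 6 genes, IRG transcripts reached 55.9 to 99.3 FPKM in the SFOG tumors, 161 to 326 in the SFSC tumors and 414 to 723 in the B6SC tumors. As a share of all FPKM in a tumor these were 0.0118 to 0.0211%, 0.0341 to 0.0684% and 0.0903 to 0.146%. The ratio of group means over the SFOG group was 3.33 in the SFSC group and 6.99 in the B6SC group, and the B6SC mean was 2.10 times the SFSC mean. No test is given for the sum, since it is a score over the chosen genes.

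The make-up of that sum also differed between groups. Iigp1 took 27.0 to 37.6% of it in the SFOG tumors, 36.4 to 44.8% in the SFSC tumors and 46.5 to 49.8% in the B6SC tumors. Irgm1 took 26.6 to 36.8%, 18.6 to 26.3% and 18.3 to 19.6%. The share of Igtp lay between 15.5 and 19.9% in all tumors. The GKS effectors summed to 0.854, 0.533 and 0.648 times the GMS regulators in the SFOG tumors, 0.887, 1.28 and 1.09 times in the SFSC tumors and 1.32, 1.37 and 1.52 times in the B6SC tumors. Ifi47, the other GKS gene listed, had no row and is not in these sums. Among the genes present, regulator transcripts outweighed effector transcripts in every SFOG tumor and in SFSC replicate 1. In the other 5 tumors effector transcripts outweighed regulator transcripts. Whether this holds with Ifi47 included could not be tested.

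**Figure D3:**
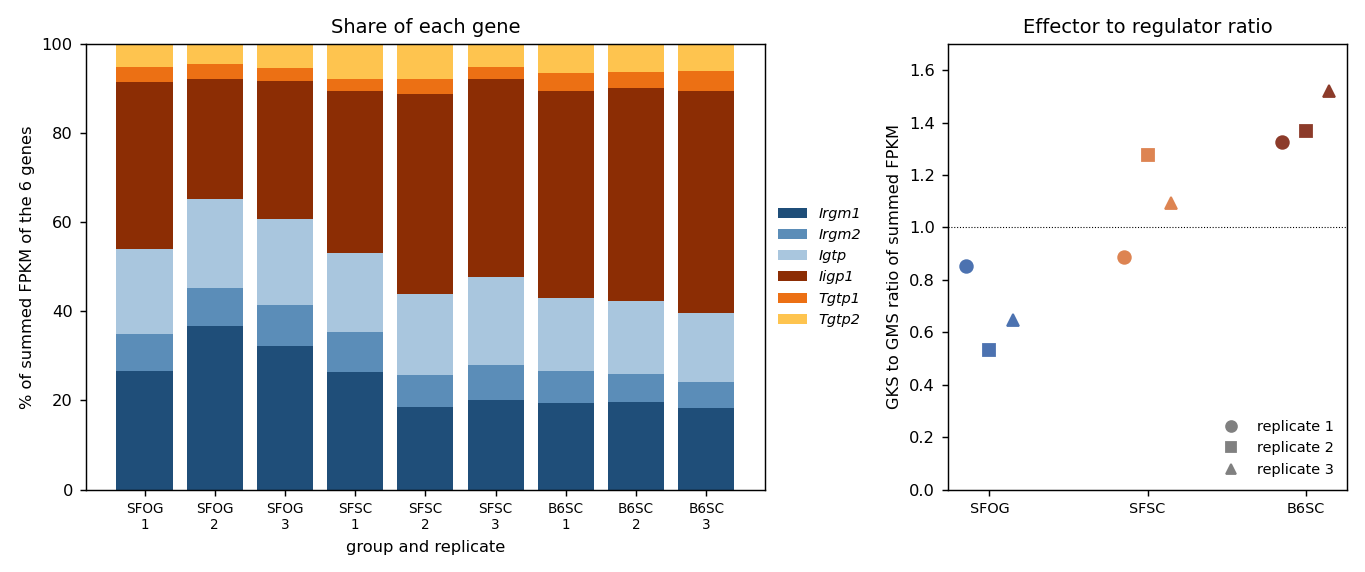
Left, the share of each gene in the summed FPKM of the 6 genes for each tumor (GMS regulators in blue, GKS effectors in red to yellow). Right, the ratio of summed GKS to summed GMS FPKM by tumor, which runs from 0.533 to 0.854 in the SFOG group and from 1.32 to 1.52 in the B6SC group. The GKS gene Ifi47 had no row and is in neither panel.

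Ratios of single genes were tested by exact two-sided permutation, and with 3 tumors in each of 2 groups the smallest p possible is 0.1. The FPKM ratio of Iigp1 to Irgm1 was 1.42, 0.732 and 0.965 in the SFOG tumors, 1.38, 2.41 and 2.21 in the SFSC tumors and 2.40, 2.45 and 2.72 in the B6SC tumors. It did not overlap between the SFOG and B6SC groups (exact permutation p = 0.1), and overlapped between the other pairs (exact permutation p = 0.2 in each). The ratio of Tgtp2 to Tgtp1 was 1.51, 1.28 and 1.90 in the SFOG tumors, 2.97, 2.33 and 2.02 in the SFSC tumors and 1.69, 1.79 and 1.41 in the B6SC tumors. The SFSC tumors lay above both other groups (exact permutation p = 0.1 against each), and the SFOG and B6SC groups overlapped (exact permutation p = 0.8). Over these 6 comparisons the lowest Benjamini-Hochberg adjusted value was 0.2. Because the copies share most of their sequence, the assignment of reads and the amount of RNA cannot be told apart in the Tgtp2 to Tgtp1 ratio.

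Within each group the 6 genes ranked the tumors alike. Replicate 3 was the lowest of the SFOG tumors for 6 of 6 genes, and replicate 1 was the highest for 5 of 6, with Irgm1 highest in replicate 2. In the SFSC group replicate 1 was the lowest and replicate 2 the highest for 6 of 6. In the B6SC group replicate 1 was the lowest and replicate 3 the highest for 6 of 6. Over the 9 tumors, which share groups, Pearson's r between pairs of the 6 genes was 0.964 to 0.996 over 15 pairs on the log2 scale, and 0.734 to 0.988 after the group means were removed. These are descriptions over tumors that fall into separate groups, and no p is attached to them.

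The genes whose pattern over the 9 tumors was most like the mean of the IRG genes were Gbp6 (r = 0.996), Gbp2 (0.993), Gbp5 (0.993), Gbp4 (0.991) and Gm4951 (0.991), out of all genes tested that are not members. Gbp6, Gbp2, Gbp5 and Gbp4 are guanylate-binding proteins (GBPs), the larger interferon-inducible GTPases that load onto the same vacuoles as IRGs. After the group means were removed, r was 0.989 for Gbp6 and 0.908 for Gbp4. Gbp6 was at 2.57, 1.62 and 1.28 FPKM in the SFOG tumors, 5.99, 12.5 and 10.2 in the SFSC tumors and 14.2, 17.4 and 25.4 in the B6SC tumors. SFSC replicate 1 was again the lowest adapted tumor and B6SC replicate 3 the highest. Of 13 GBP genes listed 9 were tested, and 8 of 9 were higher DEGs in the SFSC group and 9 of 9 in the B6SC group, with differences in the latter from 1.72 for Gbp10 to 3.34 for Gbp4. Their median differences were 1.55 and 2.31. Of all genes tested, 2.36% were higher DEGs in the SFSC group and 2.42% in the B6SC group.

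Other genes of IRG-like sequence were less uniform. Of 21 symbols listed 9 had a row, and 7 were tested, since 9930111J21Rik2 and Irgc1 stayed under 0.2 FPKM. In the SFSC group 1 of 7 was a higher DEG and in the B6SC group 3 of 7, beside 2.36% and 2.42% of all genes tested. The medians over the 7 were 0.93 and 1.97. Gm4951 was at 1.25, 0.590 and 0.612 FPKM in the SFOG tumors, 2.86, 5.96 and 5.18 in the SFSC tumors and 7.42, 6.71 and 11.9 in the B6SC tumors. It rose by 1.62 (adjusted p = 0.0129, limma) in the SFSC group and by 2.40 (adjusted p = 0.00294) in the B6SC group, and the first of these calls was lost without SFOG replicate 3 (adjusted p = 0.0570). Gm12185 rose by 1.97 in the B6SC group (adjusted p = 0.00576), from 0.394 to 1.05 FPKM in the SFOG tumors to 4.10 to 8.36 FPKM.

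Gm4841 and F830016B08Rik differed from this pattern within the SFSC group. Gm4841 was at 0.719, 2.01 and 11.4 FPKM in the SFSC tumors, against 0.267 to 0.690 in the SFOG tumors and 4.13 to 7.87 in the B6SC tumors. F830016B08Rik was at 1.50, 4.10 and 12.7 FPKM in the SFSC tumors, against 0.397 to 1.72 and 6.20 to 11.0, and its lowest SFSC tumor lay below the highest SFOG tumor. For both genes SFSC replicate 3 was the highest of all 9 tumors, whereas the 6 IRG genes were lower there than in SFSC replicate 2. That tumor also held the most skeletal muscle RNA, whose part in these values was not tested. Gm4841 was not called in either comparison (adjusted p = 0.166 and 0.0759, limma), and F830016B08Rik was called only in the B6SC group (2.27, adjusted p = 0.0454). That call was lost in 12 of 21 alternatives, 7 of them leaving out 1 or 2 tumors (adjusted p up to 0.159), and without SFSC replicate 1 the gene was called in the SFSC group too (adjusted p = 0.0345). Without SFSC replicate 3, Gm4841 was called in the B6SC group (adjusted p = 0.00604).

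Irgq, a distant family member that is not known to be interferon-inducible, lay between 6.13 and 9.21 FPKM in all 9 tumors. Its differences were -0.00066 (95% confidence interval -0.33 to 0.32) in the SFSC group and -0.11 (-0.44 to 0.21) in the B6SC group. Gm5431 and 9930111J21Rik1 were not called in either group, with levels up to 1.73 and 2.73 FPKM.

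**Figure D4:**
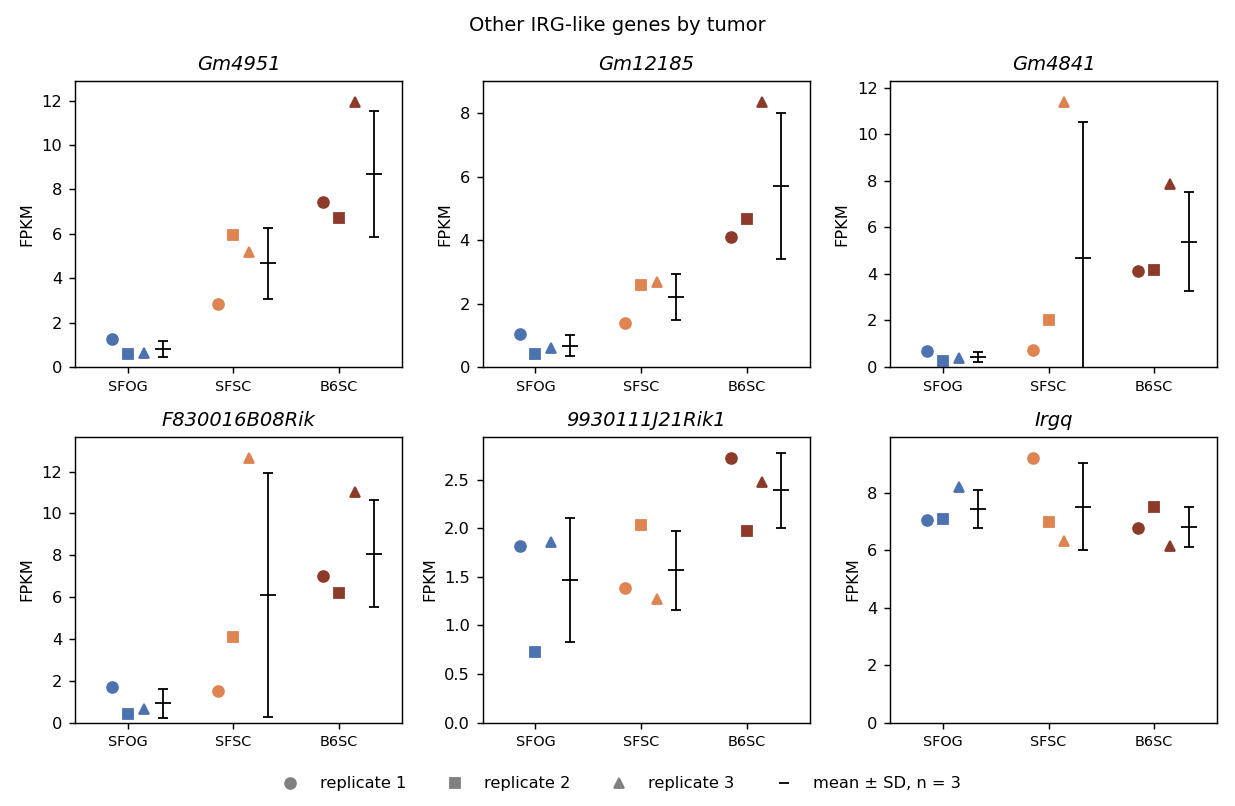
FPKM of 6 other IRG-like genes in each of the 9 tumors, with the replicate number as the symbol and the group mean ± SD (n = 3) beside the tumors. Gm4951 and Gm12185 rank the groups as the 6 immunity-related GTPases do, Gm4841 and F830016B08Rik are highest in SFSC replicate 3, and Irgq overlaps in all groups.

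The genes upstream of the IRGs were compared by their place in the pathway. Ifng, the ligand, was at 0.216, 0.107 and 0.202 FPKM in the SFOG tumors, 0.158, 1.50 and 0.524 in the SFSC tumors and 2.71, 1.45 and 2.72 in the B6SC tumors. It was called in the B6SC group (1.46, adjusted p = 0.0230, limma) and not in the SFSC group (0.48, adjusted p = 0.324), where replicate 1 was no higher than the SFOG tumors. In that tumor the 6 IRG genes were above all SFOG tumors. The part of Ifng in the IRG levels was not tested. The B6SC call of Ifng was lost in 7 of 20 alternatives, among them leaving out any SFOG tumor, B6SC replicate 1 or B6SC replicate 3 (adjusted p up to 0.103). At levels this low the FPKM + 1 scale compresses the fold change of Ifng.

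Ifngr1 and Ifngr2, the chains of the interferon-gamma receptor, were not called. Ifngr2 differed by -0.02 (95% confidence interval -0.26 to 0.22) in the SFSC group and by -0.07 (-0.31 to 0.17) in the B6SC group. Ifngr1 differed by 0.39 (0.10 to 0.68, adjusted p = 0.0962, limma) and 0.02 (-0.27 to 0.31).

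Irf1, an interferon-induced transcription factor that acts on IRG promoters, was at 39.7, 30.3 and 30.6 FPKM in the SFOG tumors, 42.5, 67.4 and 54.4 in the SFSC tumors and 84.8, 82.4 and 117 in the B6SC tumors. Irf1 kept the 3 groups apart in the order of the IRG genes, with differences of 0.68 (adjusted p = 0.0730, limma) and 1.46 (adjusted p = 0.00527), and was called in the B6SC group only. Over the 9 tumors r with the mean of the IRG genes was 0.980 for Irf1 and 0.890 for Ifng.

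Of 18 genes of interferon-gamma signalling tested, 5 were higher DEGs in the SFSC group and 7 in the B6SC group. Of all genes tested 2.36% and 2.42% were. The medians over the 18 were 0.48 and 0.46. Batf2, Nlrc5 and Irf8 were among those called in both. Batf2, a transcription factor of interferon-activated macrophages, differed by 1.80 and 2.62. Nlrc5, the transactivator of MHC class I genes, differed by 1.29 and 1.89, and its SFSC call was lost in 10 of 21 alternatives. The SFSC difference of Irf8, a factor of myeloid cells, was 1.02, just above the threshold of 1, and fell below it in 5 of 21 alternatives. Ciita, the transactivator of MHC class II genes, was called in the SFSC group (1.56, adjusted p = 0.0159, limma) and not in the B6SC group (0.67, adjusted p = 0.193). Its difference between the adapted groups was -0.90 (adjusted p = 0.632), in the other direction from the 6 IRG genes.

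**Figure D5:**
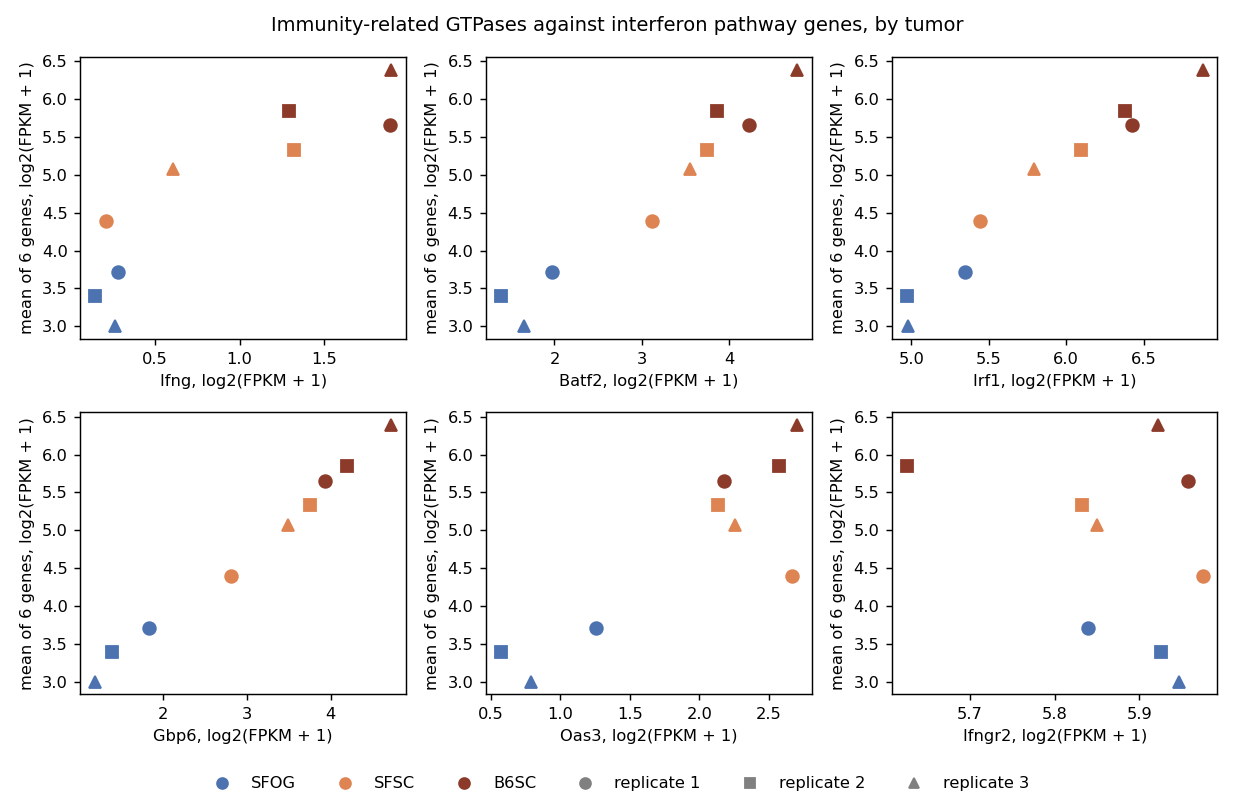
Mean log2(FPKM + 1) of the 6 immunity-related GTPases on the vertical axis against log2(FPKM + 1) of Ifng, Batf2, Irf1, Gbp6, Oas3 and Ifngr2 on the horizontal axes, one point per tumor, colored by group. Gbp6 lies closest to a line, Oas3 places SFSC replicate 1 among the highest tumors, and Ifngr2 shows no separation of the groups.

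Genes best known as targets of type I interferon were compared as well. Of 20 tested, 4 were higher DEGs in the SFSC group and 5 in the B6SC group, where 2.36% and 2.42% of all genes tested were. The medians over the 20 were 0.83 and 1.00. Oas3, which makes the second messenger that activates RNase L, was at 1.39, 0.488 and 0.725 FPKM in the SFOG tumors, 5.35, 3.39 and 3.77 in the SFSC tumors and 3.52, 4.96 and 5.50 in the B6SC tumors. The adapted groups overlapped for Oas3, and SFSC replicate 1, the adapted tumor with the lowest IRG levels, had the second highest Oas3 level. Its differences were 1.48 (adjusted p = 0.00967, limma) and 1.61 (adjusted p = 0.00601). After the group means were removed, r of Oas3 with the mean of the IRG genes was 0.08 over the 9 tumors. Over the 20 type I genes this r ran from -0.04 for Dhx58 to 0.687 for Ifih1 (median 0.239), and over the 9 GBP genes from 0.694 for Gbp8 to 0.989 for Gbp6 (median 0.914), so that the highest type I gene came close to the lowest GBP gene.

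The machinery that acts with IRG proteins on vacuoles was compared as 2 lists. The first list held 10 autophagy conjugation genes, of ATG, LC3 and GABARAP proteins, some of which are needed for IRGs to reach vacuoles. Of these 10 genes, 0 were called in the SFSC group and 0 in the B6SC group, with differences between -0.46 and 0.57 (limma). At an unadjusted p under 0.05 these counts were 0 and 1, where 26.5% and 24.4% of all genes tested passed in either direction. The 1 gene was Gabarapl2, at -0.46 in the B6SC group (adjusted p = 0.0499, limma), too small in size for a DEG. Gabarapl2 was at 45.3 to 49.2 FPKM in the SFOG tumors, 34.5 to 46.5 in the SFSC tumors and 32.3 to 35.7 in the B6SC tumors. In the B6SC group 3 of the 10 differences were above 0. Of 6 ubiquitin ligases and adaptors tested, 1 was called, Trim21, an intracellular antibody receptor and ubiquitin ligase. It was at 3.88 to 5.30 FPKM in the SFOG tumors, 7.49 to 8.79 in the SFSC tumors and 9.41 to 11.4 in the B6SC tumors, and rose by 1.09 in the B6SC group (adjusted p = 0.00305). Ube2n, a ubiquitin-conjugating enzyme, went the other way. It was at 29.7 to 31.2 FPKM in the SFOG tumors, 19.7 to 23.6 in the SFSC tumors and 22.6 to 23.7 in the B6SC tumors, with differences of -0.49 (adjusted p = 0.0148, limma) and -0.39 (adjusted p = 0.0348), which are too small in size for a DEG.

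Markers of cells that make or respond to interferon-gamma were set beside the IRG genes, and not all of them moved with these genes. The summed FPKM of 12 T and NK cell markers was 9.70 to 25.2 in the SFOG tumors, 23.3 to 59.6 in the SFSC tumors and 63.0 to 96.3 in the B6SC tumors, and Ncr1 and Klrb1c were under 1 FPKM in every tumor. SFSC replicate 1, the adapted tumor with the lowest IRG levels, was the one at 23.3, within the range of the SFOG tumors. Gzmb, which encodes a cytotoxic protease, made up much of the distance between the adapted groups, at 8.89 to 13.2 FPKM in the SFSC tumors and 28.7 to 46.8 in the B6SC tumors. Without Gzmb the other 11 markers summed to 6.47 to 13.96 FPKM in the SFOG tumors, 14.4, 49.9 and 44.8 in the SFSC tumors and 52.1, 34.3 and 47.9 in the B6SC tumors, and the adapted groups overlapped. Of 10 of these markers tested, 2 were higher DEGs in the SFSC group (Nkg7 and Cd3g) and 4 in the B6SC group, among them Gzmb (2.43, adjusted p = 0.00700, limma). Higher DEGs made up 2.36% and 2.42% of all genes tested in these groups. The SFSC calls of Nkg7 and Cd3g were lost in 13 of 21 and 14 of 20 alternatives, and their B6SC calls in 6 of 21 and 6 of 20 (adjusted p up to 0.0989). The summed FPKM of 9 macrophage and monocyte markers was 1009 to 1340, 1462 to 1821 and 865 to 1926, so that the B6SC tumors spanned the other groups. Its lowest value, 865, was in B6SC replicate 2, where the 6 IRG genes summed to 494 FPKM, above every SFSC tumor. Most of the macrophage and monocyte sum was C1qa and C1qb, at 324 and 226 FPKM in that tumor. Every B6SC tumor was above every SFOG tumor for Fcgr1 and Ly6c2, and these groups overlapped for the other markers of the list. Between the adapted groups (B6SC minus SFSC) the median difference of the 9 markers was -0.27, with 3 of 9 above 0. Ccr2 was at 17.9 to 21.1 FPKM in the SFOG tumors, 26.0 to 50.9 in the SFSC tumors and 18.6 to 24.9 in the B6SC tumors. Of these 9 markers 1, Ccr2, was called in the SFSC group (1.04, adjusted p = 0.0342, limma) and 0 in the B6SC group. At an unadjusted p under 0.05 (limma) the counts were 4 and 3, where 26.5% and 24.4% of all genes tested passed in either direction. The summed FPKM of 6 general leukocyte markers was 493 to 634, 765 to 982 and 553 to 1011, with 0 of 6 called in either group. At an unadjusted p under 0.05 (limma) 4 and 3 of the 6 passed, beside the same 26.5% and 24.4% of all genes tested. The 5 B cell markers were under 1 FPKM in every tumor. Of 6 fibroblast markers 0 were called in either group, with medians of 0.13 in the SFSC group and 0.08 in the B6SC group. Of 5 endothelial markers 0 were called in either, with medians of 0.31 and 0.22. At an unadjusted p under 0.05 (limma) 2 and 2 of the fibroblast markers and 0 and 0 of the endothelial markers passed. The part of any of these cell types in the IRG levels was not tested.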

How the data were processed

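RNA from 9 tumors was sequenced by the authors with paired reads of about 100 nt, checked with FastQC, aligned to mm10 with HISAT2 and normalized with Cuffnorm. The deposited values are FPKM, and the gene annotation and any filter on genes are not given in the sources used here. Groups and replicate numbers were read from the labels of the samples. P-values measure the spread between tumors of different mice.

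A gene entered the comparison if it reached 1 FPKM in 3 or more tumors (10263 genes). For these, log2(FPKM + 1) was modelled with 1 mean per group by lmFit and trended eBayes of limma 3.58.1 (R 4.3.3). Intervals are 95% intervals per gene. Ratios were compared by permutation with SciPy 1.17.1. The procedure was tested on simulated data with known changes.

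The genes and gene lists were chosen with earlier results of these data known, and no list is independent support. The text names every IRG and IRG-like gene present, genes of the other lists that a sentence discusses, and the 5 other genes with the most similar pattern. Alternatives covered the pseudocount, the filter, the scaling, the tumors fitted, a replicate block, eBayes settings, fold thresholds, a muscle covariate and each tumor left out. Leaving out both tumors with skeletal muscle RNA was added after the data were seen. Genome coordinates and sequences of these genes are not given, since no mouse reference was used here. Values of 1 gene of the interferon-gamma signalling list are not reported here.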

Additional observations from a re-analysis of the deposited data

How the results depend on the processing

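Against the SFOG group, 6 of 6 IRG genes were called in the B6SC group under every alternative except limma's treat, and 0 of 6 were called between the adapted groups under every alternative. The treat test asks for a log2 fold change above 1 itself. It called 0 of 6 IRG genes in the SFSC group, 0 in the B6SC group and 0 for the mean of both. Of all 10263 genes tested, it called 3, 7 and 12 in either direction. In the SFSC group the count of 5 became 2 without both tumors with skeletal muscle RNA, and ranged from 2 to 6 with single tumors left out. It was 2 without SFOG replicate 3, SFSC replicate 2 or SFSC replicate 3, and 3 without SFOG replicate 2. Irgm2 and Tgtp2 stayed called there under the other 21 alternatives. Tgtp1 fitted alone was 1.23 (adjusted p = 0.0644) and was not called, where the sum of both copies was. The summed FPKM moved by less than the spread between tumors. A replicate block gave a count of 2 in the SFSC group and changed no other count of IRG calls. Tumors with the same number came from different mice, and their deviations from the group means correlated at -0.388 to 0.614, so the numbers were not taken as pairs. With 3 tumors a group and no counts, the precision of every gene is limited. For weakly expressed genes such as Ifng and Tgtp1 the FPKM + 1 scale compresses differences. The SE did not follow the level, at 0.400 for Iigp1, 0.347 for Tgtp1 and 0.292 for Ifng (limma).

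Some differences near 0 changed sign, and none of them was called. In the SFSC group 9930111J21Rik1 was -0.16 under quantile scaling and ranged from -0.16 to 0.21 with 1 tumor left out. Irgq was 0.050 with the muscle covariate, 0.10 without both muscle tumors and -0.14 to 0.10 with 1 left out, and Ifngr2 was 0.0145 under quantile scaling and -0.0626 to 0.00849 with 1 left out. In the B6SC group Ifngr1 was -0.0373 with the covariate, -0.0247 without both muscle tumors and -0.067 to 0.0709 with 1 left out, where Ifngr2 ranged from -0.13 to 0.0357. With 1 left out, B6SC minus SFSC ranged from -0.11 to 0.0538 for Ifngr2, -0.21 to 0.0264 for Irgq, -0.00445 to 0.34 for Irf8, -0.11 to 0.59 for Nkg7 and -0.0178 to 0.80 for Cd3g, and the mean of both adapted groups from -0.0761 to 0.00876 for Ifngr2 and -0.13 to 0.00591 for Irgq.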
